A study of Mus musculus with 8 samples.

Results

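Early organoids (EO, harvested 3 days after seeding in Matrigel) were compared with differentiated organoids (DO, harvested at 2 weeks), both grown from mouse cervix cells in Wnt-deficient medium. The comparison rests on 4 of the 8 arrays of the series, 1 EO and 1 DO array from each of the mice mc028 and mc029, all at passage 2. Its members are the probes, control probes left out, that the scanner software (Feature Extraction) marked as well above background on both EO arrays, on both DO arrays, or on all of them. This rule gave 24667 of 55681 probes (44.3%), of which 18148 carried a gene name, for 13566 named genes. The rule used detection and not the difference between EO and DO, but a member could enter through the brighter group alone. For organoid culture the methods name wild-type BALB/c females aged 10 to 20 weeks, and elsewhere in the study C57BL/6 mice, while the labels give neither strain nor genotype. The medium held neither WNT3A nor RSPO1. Per the methods it was an Advanced DMEM/F-12 base with HEPES, GlutaMax, B27, N2, mouse EGF, noggin, FGF10, N-acetyl-L-cysteine, nicotinamide, the ROCK inhibitor Y-27632 and TGF-β receptor kinase inhibitor IV, for EO and DO alike. The methods describe these organoids as ectocervical, whereas the labels give only cervix. Each group is 2 cultures from 2 animals, EO and DO differ in days in culture as well as in differentiation, and bulk RNA was measured, in which fewer cells of a type and less RNA per cell cannot be told apart.

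A stratified squamous epithelium renews from basal cells, which hold on to the basement membrane through integrins and laminins and carry the keratins Krt5 and Krt14. Cells that leave this layer stop dividing, exchange their keratins and desmosomal cadherins, and end in a cornified envelope, where loricrin, late cornified envelope (Lce) and small proline-rich (Sprr) proteins are cross-linked by transglutaminases. Kallikreins and other serine proteases, held in check by serpins and WAP domain inhibitors, take part in shedding the outer cells, and S100 proteins, defensins and IL-1 family ligands serve defence at the surface.

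The 4 arrays lay on 1 slide and were scanned in 1 session, so neither separates EO from DO. The 75th percentile of the processed intensity was 250 and 270 in the EO arrays of mice mc028 and mc029, and 288 and 206 in their DO arrays. Well above background were 43.5% and 44.4% of the probes in EO, and 47.9% and 43.2% in DO. No spot was saturated (0 on each array). The series text names a human custom array, but the file headers name a mouse design, and the probe positions given here are those in the files (build mm9). Values below are log2 intensities after background correction and quantile normalization, in the order mc028 then mc029 for EO and again for DO. A log2 change is EO minus DO, so that a positive change is higher at 3 days and a negative change is higher at 2 weeks. For some genes an array of a group was not well above background, as for Klk7, Klk1b8, Dsg1a, Rora, Ereg and Gdf15. Their changes rest in part on a background value. Changes were tested with limma (two-sided moderated test, 2 mice per group), and a probe was called at a Benjamini-Hochberg adjusted p under 0.05 together with a log2 change beyond 1.5 in either direction. Genes that missed a call are given beside the called genes of their list as examples, and outside those the study names they were chosen after their values were seen.

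Tested genes called higher in DO were 12 of 19 Lce, 5 of 12 suprabasal keratin and 10 of 10 Klk1 and Klk1b genes. Of the 12 called Lce genes, 10 were well above background on 1 EO array only and 1 on none. Of the 10 Klk1 and Klk1b genes, from 14 with a probe, 1 was so on 1 EO array only and 7 on none. These genes entered through the DO arrays alone, so the detection filter in part set the shares called. Called higher in EO were 4 of 12 EGF family ligands and receptors and 7 of 31 mitotic genes. In the Lce, keratin, EGF and mitotic lists calls were lost when an array or mouse was left out, as given below. Of the 24667 members, 755 were called (3.06%), 290 higher in EO (1.18%) and 465 higher in DO (1.89%), and since no probe outside the members was called, the same 755 made up 2.57% of the 29423 probes tested. Counted by gene, with 1 probe for each, 199 of 15345 were higher in EO (1.30%) and 317 higher in DO (2.07%), with a median log2 change of 0.03, and these figures are the background for every gene list below. The members as a whole were centred, with a median log2 change of 0.00 and an SD of 0.718, 5% of them lying under -1.07 and 5% over 0.99. The adjusted p was under 0.05 for 4158 members whatever the size of the change. The large changes lay on the DO side: 97 called probes were higher in DO by more than 3 on the log2 scale against 32 higher in EO, and 24 against 0 went beyond 5, where for genes at background in the other group the computed difference was counted. All 755 had the same direction in both mice. The EO and DO arrays did not overlap for 15633 of the 24667 members, a description with no test. With 2 arrays in each group, such an order also arises in probes without a change. The count is therefore no count of changed probes, and it is not of the same kind as the 3.06% called. Among the list medians below, those of the Sprr, basal keratin, AP-1, Notch, Notch target, Wnt, Wnt antagonist, oxidative phosphorylation, retinoid, columnar, fibroblast, squamous defining and interferon lists changed sign or reached 0 in at least 1 fit without an array or mouse.

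The mice were close to each other within each age. Over the members, the log2 values of the mice correlated with r = 0.985 in EO and 0.987 in DO, whereas EO and DO of the same mouse correlated with 0.954 in mc028 and 0.965 in mc029, and those of different mice with 0.958 and 0.959. These r are taken over probes, and probes are no independent replicates. The difference between mice had an SD over probes of 0.479 in EO and 0.436 in DO, and the difference between EO and DO had an SD of 0.836 in mc028 and 0.725 in mc029. The EO minus DO differences of the mice correlated with r = 0.69 over 24665 probes. A pair of arrays from the same mouse shared little beyond this, since what set an EO array off its group mean and what did so for the DO array correlated with 0.0737, and with the mouse as a block 743 probes were called. The count of 755 moved when an array was left out: 627 without EO mc028, 670 without EO mc029, 416 without DO mc028 and 786 without DO mc029. Without mouse mc028 it was 157, and without mouse mc029 it was 657. In these fits the remaining array of a group was taken to vary like the other groups. The Wnt-proficient arrays lend their spread to the fit, and without 1 of them or 1 of their mice, settings chosen after the data were seen, 605 to 827 probes were called.

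The 15 largest falls in EO among genes well above background on at least 1 array of each group included 8 Lce1 genes, 3 genes of protease inhibitors, a keratin, a kallikrein, a defensin and S100g. Wfdc12, a WAP domain protease inhibitor, had log2 intensities of 5.99 and 8.76 in EO and of 14.88 and 15.29 in DO. Its EO arrays were low and its DO arrays high without overlap, and its EO array of mc028 was not well above background (log2 change -7.71 with a standard error of 0.75, adjusted p = 0.00387). S100g, the calcium-binding protein calbindin-D9k, had values of 7.73 and 7.32 in EO and of 14.72 and 15.22 in DO. Here the mice lay close together at both ages, far apart between them (log2 change -7.45 with a standard error of 0.39, adjusted p = 5.67e-04). Serpinb3a and Serpinb3c are neighbouring serpin genes. Serpinb3a had 6.96 and 8.96 in EO and 13.37 and 14.23 in DO, and Serpinb3c had 6.89 and 8.17 in EO and 12.48 and 13.37 in DO. Both were higher in DO in each mouse by more than the distance between the mice (log2 changes -5.84 and -5.40, adjusted p = 0.00435 and 0.00222). Krt76, a keratin of differentiated layers, had 8.35 and 8.73 in EO and 13.92 and 14.51 in DO, groups that lay well apart (log2 change -5.68, adjusted p = 0.00305).

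Klk1b3, Defb4 and the 8 Lce1 genes of the 15 are taken up below. Wfdc12 and these Lce1 genes were at background in the EO array of mc028, so the size and order of their changes rest in part on a background value. Of these 15 calls, 15, 15, 7 and 9 were also made without EO mc028, EO mc029, DO mc028 and DO mc029 in turn, and 13 and 14 without mouse mc028 and without mouse mc029, with log2 changes between -9.10 and -3.28. S100g, Klk1b3, Serpinb3a, Serpinb3c and Defb4 were called under every setting tried, and Wfdc12 under every setting but the filter for probes well above background on all 4 arrays, which left it untested. The probes of Wfdc12 and S100g, the first of these 15 by computed change, are printed here as the array files give them.
Wfdc12: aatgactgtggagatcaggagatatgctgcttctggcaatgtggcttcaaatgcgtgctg
S100g: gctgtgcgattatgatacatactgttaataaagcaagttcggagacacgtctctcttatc
The Wfdc12 probe lies on the minus strand at chr2:164015895-164015954 and the S100g probe on the minus strand at chrX:159399938-159399997.

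The 15 largest rises in EO, chosen in the same way, ranged over secreted proteins, surface proteins, enzymes and a ribosomal RNA. Fst, which binds and neutralizes activin, had log2 intensities of 13.18 and 14.24 in EO and of 8.51 and 9.48 in DO. Both mice had a high EO and a low DO array, mc029 being the brighter at each age (log2 change 4.72 with a standard error of 0.75, adjusted p = 0.0124). Adam8, a membrane metalloprotease, had 13.02 and 13.13 in EO and 8.86 and 7.95 in DO, so that the groups lay far apart and the DO arrays differed more than the EO arrays (log2 change 4.67, adjusted p = 0.00463). Rs5-8s1, a gene for 5.8S ribosomal RNA, had 10.93 and 11.34 in EO and 6.62 and 7.21 in DO, again without overlap (log2 change 4.22, adjusted p = 0.00103). Artn encodes artemin, a ligand of the GDNF family. Its values were 10.97 and 11.23 in EO and 7.57 and 7.70 in DO, with the mice nearly equal at each age (log2 change 3.46, adjusted p = 8.28e-04). Procr, the protein C receptor, had 12.31 and 13.72 in EO and 8.91 and 9.56 in DO, higher in mc029 at both ages (log2 change 3.79, adjusted p = 0.00602).

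Slc7a8, a transporter of neutral amino acids, had 10.82 and 11.08 in EO and 7.19 and 7.70 in DO, with little between the mice (log2 change 3.51, adjusted p = 0.00146). Msln, the surface protein mesothelin, had 10.66 and 9.57 in EO and 6.93 and 6.78 in DO, and here mc028 was the brighter EO array (log2 change 3.26, adjusted p = 0.0124). Fads3, of the fatty acid desaturase family, had 12.16 and 12.99 in EO and 8.77 and 9.71 in DO, both times higher in mc029 (log2 change 3.33, adjusted p = 0.00653). The remaining genes of the 15, Epgn, Cxcl5, Akr1b8, Tubb6, Wnt9a, Plaur and Etv4, stand with their groups below. Of the 15 calls, 12, 12, 10 and 12 were also made without EO mc028, EO mc029, DO mc028 and DO mc029 in turn, and 5 and 8 without mouse mc028 and without mouse mc029, with log2 changes between 2.71 and 5.24. Artn, Etv4, Procr, Rs5-8s1 and Slc7a8 were called under every setting.

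**Figure D1:**
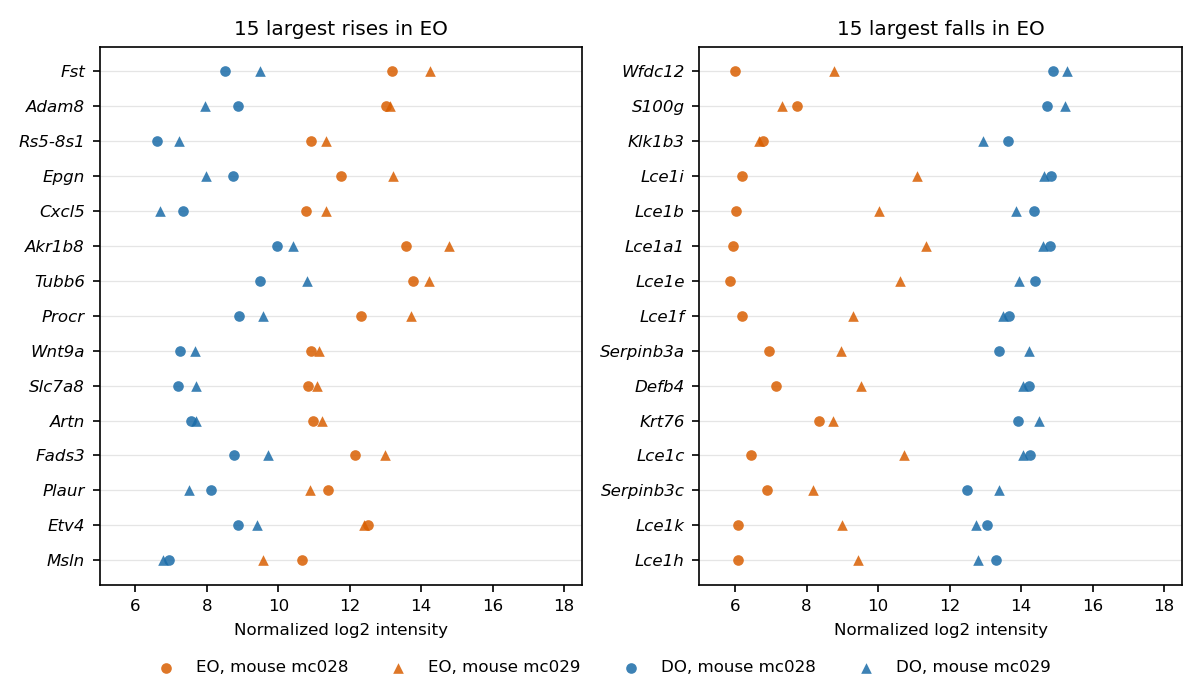
Log2 intensity (x axis) of the 15 largest rises (left) and the 15 largest falls (right) in EO, 1 point for each array. EO and DO points do not overlap for any of these genes, and among the falls the EO arrays of the mice are far apart for the Lce1 genes, as for Lce1i at 6.20 and 11.09.

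Some called genes were detected at 1 age only, and for these a lower bound of the fold is given. It sets the mean of the brighter group against a mean for the dimmer group. For each array of the dimmer group it takes the probe's own signal or, if higher, the lowest signal among probes well above background. The bound holds for the group means after quantile normalization only. In a single mouse or under another setting the difference can be smaller. Cxcl3, for example, had log2 changes of 1.65 in mc028 and 3.63 in mc029. Among the 290 probes called higher in EO, 14 were well above background on no DO array, and among the 465 called higher in DO, 47 were so on no EO array. In EO the largest bound was that of Tm4sf1, a surface protein of the transmembrane 4 family, with 10.26 and 10.50 in EO against 6.26 and 6.42 in DO. Both EO arrays were bright and both DO arrays at background, a difference of at least 16.1-fold (adjusted p = 0.0307). The potassium channel gene Kcnn4 was at least 8.31-fold higher in EO, the IgM receptor gene Fcmr at least 6.11-fold and the fibronectin gene Fn1 at least 6.06-fold. Cxcl3, Afp, Slc2a6 and Cald1 followed with bounds of 5.50, 3.50, 3.47 and 2.84.

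In DO the largest bounds were those of 5 kallikrein genes, given below, and of Gpnmb, Pcp4 and Wfdc15b. Gpnmb, a membrane glycoprotein of melanosomes and lysosomes, had 6.23 and 6.21 in EO and 11.63 and 10.75 in DO, so that both EO arrays were at background (at least 27.2-fold, adjusted p = 0.0147). Pcp4, a small calmodulin-binding protein, had 6.02 and 6.04 in EO and 9.67 and 12.02 in DO, where the mice were far apart from each other (at least 21.4-fold, adjusted p = 0.0235). Wfdc15b, which lies near Wfdc12, had 6.21 and 6.41 in EO and 11.17 and 10.42 in DO, with the mice close at each age (at least 20.7-fold, adjusted p = 5.67e-04). Of the 8 bounds on the EO side, 5, 3, 1 and 3 were also called without EO mc028, EO mc029, DO mc028 and DO mc029 in turn and 1 and 1 without each mouse, mc028 or mc029, with Afp called under every setting that tested it. Of the 8 bounds on the DO side, 6, 6, 7 and 7 were also called without these arrays and 5 and 6 without these mice, with Klk1, Klk1b5, Klk1b24, Klk1b26 and Wfdc15b called under every setting that tested them. The filter for probes well above background on all 4 arrays tested none of these genes, nor Afp.

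The Lce genes, which encode late cornified envelope proteins, formed the list with the lowest median. All 19 tested Lce genes were lower in EO, 12 of them called, with a median log2 change of -4.78. The 12 called genes were all of the Lce1 group. Only 7 of the 19 were well above background on both EO arrays, so the median rests in part on background values. With the filter for all 4 arrays these 7 had a median of -3.32, with 1 called. Lce1i had log2 intensities of 6.20 and 11.09 in EO and of 14.83 and 14.64 in DO. The DO arrays were equally bright, while of the EO arrays only that of mc029 was well above background (log2 change -6.09, adjusted p = 0.0271). Lce1f had 6.18 and 9.30 in EO and 13.66 and 13.50 in DO, the same order of arrays (log2 change -5.84, adjusted p = 0.00967). Lce1m differed from its relatives, with 6.24 and 6.41 in EO and 11.32 and 9.75 in DO. Neither EO array was well above background, and the gene was at least 17.3-fold higher in DO (adjusted p = 0.00450). Lce1d, with 6.03 and 12.07 in EO and 14.33 and 13.92 in DO, missed the call (log2 change -5.07, adjusted p = 0.0794).

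The EO arrays of the mice stood apart by more than 1 on the log2 scale for 18 of 19 Lce genes, the exception being Lce1m. EO of mc029 was above EO of mc028 for 19 of 19 genes, by 0.18 to 6.49 on the log2 scale with a median of 4.76, whereas the DO arrays differed by a median of 0.27 and at most by 1.57. For 11 genes only 1 EO array was well above background, and for Lce1m none was. The EO distances of these genes rest on background values. For the 6 Lce3 genes the EO array of mc029 was above that of mc028 by more than 5 on the log2 scale and closer to DO. Lce3b had 9.71 and 16.19 in EO and 16.60 and 16.28 in DO, so that the EO array of mc028 alone was low (log2 change -3.49, adjusted p = 0.231). Lce3f had 7.96 and 13.20 in EO and 14.91 and 14.78 in DO, with the EO arrays again far apart (log2 change -4.26, adjusted p = 0.0862). The median change of the list was -2.45 without mouse mc028 and -6.98 without mouse mc029. Of the 12 calls, 12 and 12 were also made without EO mc028 and without EO mc029, but 1 and 3 without DO mc028 and without DO mc029, and 11 and 12 without mouse mc028 and without mouse mc029. With the processed signal of the scanner software 5 Lce genes were called, and without a Wnt-proficient mouse, whose arrays lend their spread to the fit, 4 were called.

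The Lce1 probes were made for related genes, and their sequences are shown to let the reader judge how far they can tell the genes apart. Among 13 Lce1 probes, each 60 bases long, the closest pair, Lce1d and Lce1i, shared 46 identical bases in their best alignment without gaps, and the median pair shared 21. In the Lce1f line the capitals mark bases that differ from Lce1i or lie outside the overlap. The plain line of Lce1i comes ahead of it, and Lce1f shares 33 bases with it.
Lce1i: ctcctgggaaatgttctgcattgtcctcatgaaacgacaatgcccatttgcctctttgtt
Lce1f: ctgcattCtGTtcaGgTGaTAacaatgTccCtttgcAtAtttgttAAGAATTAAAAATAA
No Lce1 probe had a partner with 54 or more identical bases, whereas the Lce3b and Lce3c probes shared 54, so that the values of that pair may not be independent.

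Kallikreins of the Klk1 group were low in EO and high in DO in both mice. Of 22 tested kallikreins and membrane serine proteases, 0 were called higher in EO and 9 higher in DO, with a median log2 change of -1.82. With the processed signal 2 were called higher in DO and 1 higher in EO. In EO the mice differed by more than 1 for 9 of the 22, and mc029 was the higher for 17. That list holds Klk1 and Klk1b3, and the other Klk1b genes are counted apart. Klk1, the tissue kallikrein, had log2 intensities of 5.92 and 5.96 in EO and of 12.91 and 12.46 in DO. Its EO arrays were at background and its DO arrays bright, at least 76.5-fold higher (adjusted p = 2.77e-05). Klk1b5 had 6.10 and 6.02 in EO and 13.72 and 13.21 in DO, at background in EO in both mice and at least 132-fold higher in DO (adjusted p = 2.77e-05). Klk1b3, measured on both sides, had 6.78 and 6.68 in EO and 13.64 and 12.94 in DO (log2 change -6.56, adjusted p = 2.27e-04). Klk1b26, Klk1b24 and Klk1b4 had bounds of 59.2, 45.1 and 18.7.

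Of 14 Klk1 and Klk1b genes with a probe, 10 were tested, and all 10 were called higher in DO. Klk1b8, well above background on 1 EO array, and the 7 genes on no EO array were members through the DO arrays alone. The detection filter thus in part set the share called. Well above background on at least 1 EO array were Klk1b3, Klk1b8 and Klk1b21, the last 2 with log2 changes of -4.86 and -3.46, and the other 7 were so on no EO array, which leaves only lower bounds, up to the 132-fold of Klk1b5. Over all 10 genes the EO arrays differed between mice by -0.42 to 0.39 (median -0.06), which for the last 7 is a distance between background values. The DO arrays of the 10 genes differed by a median of 0.81 and at most by 1.24. Among the kallikreins known from the outer layers of skin, Klk6, Klk7, Klk11, Klk13 and Klk14 were called. Klk7, the chymotryptic enzyme of the stratum corneum, had 6.22 and 7.56 in EO and 9.43 and 9.22 in DO, its EO arrays low and well apart from DO (log2 change -2.44, adjusted p = 0.0118). The EO array of mc028 was not well above background for Klk7. Klk13 had 10.66 and 10.99 in EO and 12.31 and 12.37 in DO, with little between the mice (log2 change -1.51, adjusted p = 0.00435). Klk8 missed the call, with 11.59 and 14.25 in EO and 15.61 and 15.52 in DO (log2 change -2.65, adjusted p = 0.0535). Of the membrane proteases, Tmprss11a had 10.70 and 10.05 in EO and 13.50 and 13.86 in DO, low in both EO arrays (log2 change -3.31, adjusted p = 0.00812). Of the 9 calls, 5, 9, 4 and 5 were also made without EO mc028, EO mc029, DO mc028 and DO mc029 in turn, and 2 and 7 without mouse mc028 and without mouse mc029, Klk1 and Klk1b3 each time.

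The Klk1b probes are shown because they rest on near copies of a gene. Klk1b26 and Klk1b5 shared 54 of 60 bases, and their values may therefore not be independent, whereas the median pair of the 10 genes shared 21. Capitals in the Klk1b26 line mark the bases that differ from Klk1b5 or lie outside the overlap, and the Klk1 line is plain.
Klk1b5: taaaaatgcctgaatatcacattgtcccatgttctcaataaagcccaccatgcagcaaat
Klk1b26: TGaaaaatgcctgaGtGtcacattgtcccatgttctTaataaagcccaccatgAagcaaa
Klk1: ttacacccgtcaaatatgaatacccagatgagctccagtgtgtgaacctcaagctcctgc
All 3 probes lie on the plus strand of chromosome 7, those of Klk1b26, Klk1b5 and Klk1 at chr7:51272277-51272336, chr7:51476012-51476071 and chr7:51484170-51484325, the last across an intron.

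Called genes lay close together at 8 places, counted as windows of 1 Mb with at least 4 called genes, which held 55 of the 512 called genes with a position. The largest such place was chromosome 3 from 92 to 93 Mb, the epidermal differentiation complex, where 14 of 41 member genes were higher in DO and 0 higher in EO (median log2 change -3.06). These were the 12 Lce1 genes, Sprr3 and the predicted gene 2210017I01Rik. On chromosome 7 from 51 to 52 Mb, 13 of 33 member genes were higher in DO, all of them kallikreins (median -0.96). On chromosome 8 from 19 to 20 Mb, 5 of 9 were higher in DO, namely Defb14, Defb4, Defb6, Defb3 and the pseudogene Defa-ps12 (median -2.23). Chromosome 5 from 91 to 92 Mb was the place of rises, with Cxcl5, Cxcl3, Epgn, Ereg and Areg higher in EO among 11 member genes (median 1.70). The keratin genes lay at chromosome 15 from 101 to 102 Mb, with Krt76, Krt4, Krt79 and Soat2 higher in DO and Krt18 higher in EO among 30, and at chromosome 11 from 99 to 100 Mb, with Krt10, Krt13, Krt32 and Krtap3-2 higher in DO among 20. Wfdc12, Wfdc15b, Rbpjl, Pltp and Slc12a5 were higher in DO among 28 on chromosome 2 from 164 to 165 Mb, and Psca, Slurp1, Slurp2 and Ly6m among 16 on chromosome 15 from 74 to 75 Mb. Over whole chromosomes, the share of member genes called higher in DO was largest on chromosome 3 (5.10%) and next on chromosome X (3.78%).

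**Figure D2:**
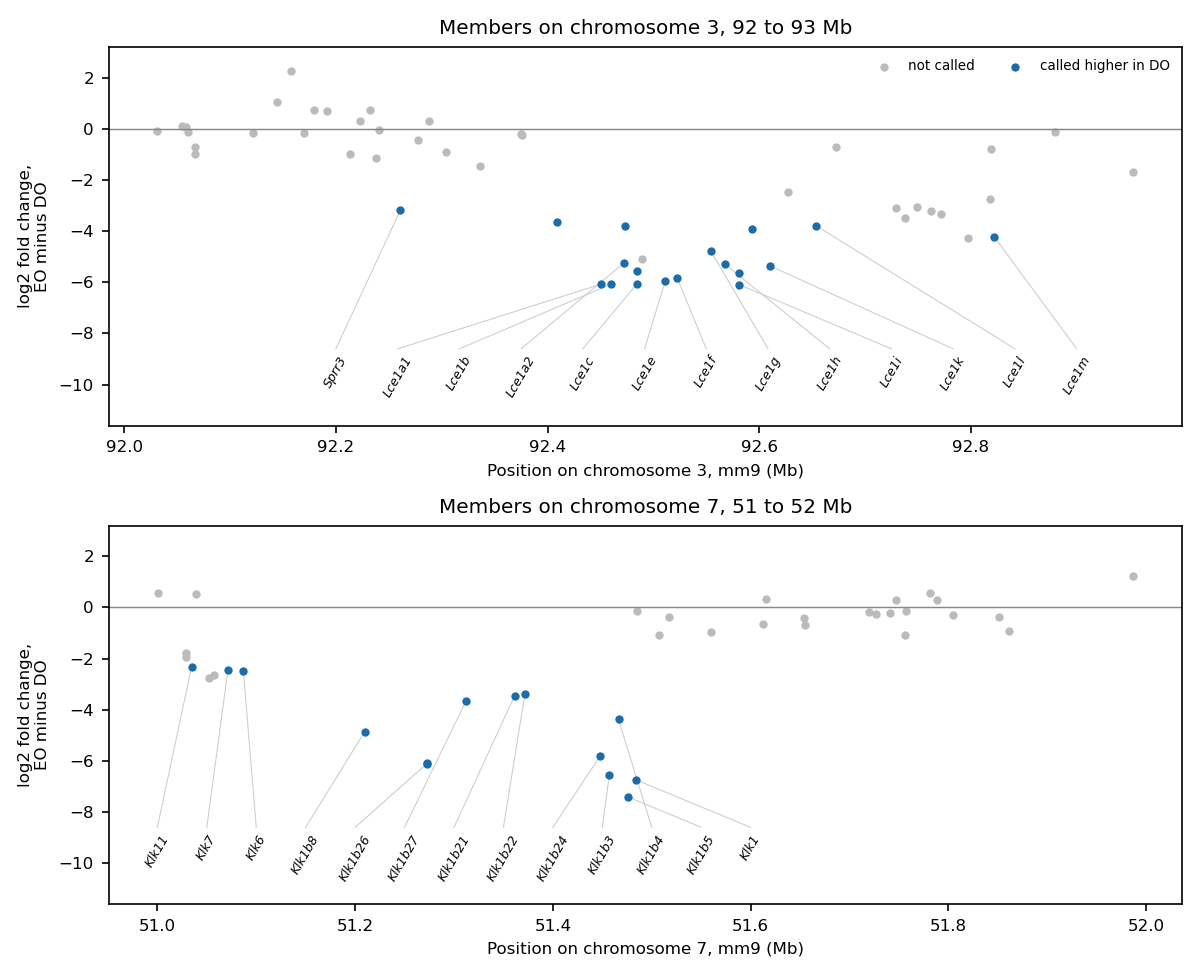
Log2 change EO minus DO (y axis) of each member probe against its mm9 position (x axis) on chromosome 3 from 92 to 93 Mb (top) and chromosome 7 from 51 to 52 Mb (bottom), called genes of the Lce, Sprr and Klk families labelled. The called probes of both places lie below 0, as Lce1f at -5.84 and Klk1b3 at -6.56, and genes at background in EO, such as Klk1 and Klk1b5, are drawn at a computed difference that is no measured size.

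Among 25 tested genes for other structural and cross-linking proteins of the cornified envelope, 23 had a negative change, 5 were called higher in DO and 1 higher in EO, with a median log2 change of -1.49, which was -0.54 without EO mc028 and -0.66 without mouse mc028. Lor, the gene for loricrin, had log2 intensities of 11.72 and 12.36 in EO and of 16.16 and 16.55 in DO, bright in all arrays and brighter in DO in both mice (log2 change -4.31, adjusted p = 0.00168). Rptn, for repetin, had 7.28 and 8.83 in EO and 12.28 and 11.95 in DO, the EO arrays low and unequal (log2 change -4.06, adjusted p = 0.00561). Asprv1, the protease that processes filaggrin, had 9.83 and 12.01 in EO and 14.76 and 14.78 in DO, also with a gap between the EO arrays (log2 change -3.85, adjusted p = 0.0172). Fam25c had 10.02 and 13.09 in EO and 16.30 and 16.70 in DO, the EO arrays once more apart (log2 change -4.94, adjusted p = 0.0491). Hrnr, for hornerin, was below background in EO and at least 2.33-fold higher in DO. Padi3, a peptidylarginine deiminase, was the gene higher in EO, with 8.64 and 8.55 in EO and 6.92 and 7.14 in DO and no overlap (log2 change 1.56, adjusted p = 0.0268).

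Involucrin (Ivl) was near equal, with 8.45 and 7.94 in EO and 8.57 and 8.20 in DO (log2 change -0.19). The transglutaminase genes did not pass the test: Tgm1 had a log2 change of 0.69 and Tgm3 of -0.15. In contrast to the Lce genes, the Sprr genes had a median log2 change of -0.14 over 13 tested, with 8 negative changes and with Sprr3 as the only call. Sprr3 had 10.21 and 12.20 in EO and 14.48 and 14.30 in DO, lower in both EO arrays (log2 change -3.18, adjusted p = 0.0197), whereas Sprr1a had 15.97 and 16.84 in EO and 16.50 and 15.73 in DO, arrays that overlapped (log2 change 0.29). The Sprr median was positive without EO mc028 (0.36), without DO mc028 (0.06) and without mouse mc028 (0.35). Of the 6 envelope calls higher in DO, 4, 5, 3 and 2 were also made without EO mc028, EO mc029, DO mc028 and DO mc029 in turn and 1 and 4 without mouse mc028 and without mouse mc029, with log2 changes between -6.48 and -0.98. The call of Padi3 was lost in each of these fits, with changes between 1.41 and 1.72.

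Of 12 keratins of the differentiated squamous layers, 11 had a negative change and 5 were called higher in DO, with a median log2 change of -1.72. Krt4, of non-cornified squamous epithelia, had log2 intensities of 9.68 and 9.95 in EO and of 14.43 and 14.71 in DO. Krt13, its partner, had 15.09 and 14.89 in EO and 17.48 and 17.62 in DO. Krt10, of cornifying epithelia, had 11.78 and 11.05 in EO and 15.55 and 15.81 in DO. For these 3 keratins the mice lay close together and the DO arrays above both EO arrays, with log2 changes of -4.76, -2.56 and -4.26 and adjusted p of 0.00435, 0.00635 and 0.00521. Krt79 was also called, with a log2 change of -1.77 (adjusted p = 0.0118). Krt1, the usual partner of Krt10, had 8.15 and 11.59 in EO and 13.99 and 14.36 in DO and was not called (log2 change -4.30, adjusted p = 0.234).

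The keratins of basal and activated squamous cells had 7 tested genes, 1 call and a median log2 change of 0.01, a sign that flipped under each of the 4 other scalings tried (down to -0.47). Krt17, a keratin of wounded and activated keratinocytes, had 17.57 and 17.26 in EO and 14.38 and 14.49 in DO. Both EO arrays were well above both DO arrays (log2 change 2.98, adjusted p = 0.00416). Krt5 had 17.87 and 17.97 in EO and 17.90 and 17.92 in DO, and Krt14 had 17.29 and 17.61 in EO and 17.97 and 17.99 in DO. Neither was called, with log2 changes of 0.01 and -0.53. Krt15, of basal cells, had 16.52 and 13.92 in EO and 17.08 and 16.68 in DO, the EO array of mc029 alone being low (log2 change -1.66, adjusted p = 0.174). Krt6a and Krt16, of activated keratinocytes, had log2 changes of 0.20 and 0.94 and were not called. Of the 5 keratin calls higher in DO, 5, 4, 4 and 5 were also made without EO mc028, EO mc029, DO mc028 and DO mc029 in turn, and 0 and 0 without mouse mc028 and without mouse mc029. The call of Krt17 held without each array and was lost without each mouse (log2 changes between 2.77 and 3.19).

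Cell adhesion genes moved in both directions. Of 15 tested genes of the basal layer and its hemidesmosomes, 11 had a positive change and 3 were called higher in EO, with a median log2 change of 0.75. Itga3, the integrin α3 chain, had log2 intensities of 11.92 and 12.70 in EO and of 10.65 and 10.49 in DO. Lama3, a chain of laminin-332, had 11.29 and 12.22 in EO and 9.95 and 10.19 in DO. For both the EO arrays lay above the DO arrays, with mc029 highest (log2 changes 1.74 and 1.68, adjusted p = 0.0197 and 0.0158). Itga6 and Itgb4, the integrin of the hemidesmosome, had log2 changes of 0.81 and 0.75 with adjusted p of 0.0206 and 0.0270, under the size needed for a call. Trp63, the basal transcription factor p63, had 13.36 and 13.38 in EO and 13.84 and 13.73 in DO, near equal in all arrays (log2 change -0.41, adjusted p = 0.281).

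The 14 desmosomal genes tested had a median log2 change of -0.17 (-0.35 without DO mc028, -0.34 without EO mc029 and -0.07 without DO mc029, and between -0.37 and 0.00 over the settings). Dsg1a and Dsg1c, cadherins of the upper layers, were higher in DO, and Pkp2, a plaque protein, was higher in EO. Dsg1a had 6.20 and 7.84 in EO and 9.71 and 10.78 in DO, low in EO and apart from DO (log2 change -3.22, adjusted p = 0.0138). Its EO array of mc028 was not well above background. Dsg3, a cadherin of the lower layers, had 10.96 and 11.49 in EO and 11.13 and 11.24 in DO, arrays that overlapped (log2 change 0.05). Pkp2 had 9.25 and 9.24 in EO and 7.23 and 7.39 in DO, with the mice nearly equal (log2 change 1.93, adjusted p = 0.00780). Among 15 connexins, claudins and other junction genes, Cldn4 was called, with 9.83 and 9.55 in EO and 8.05 and 7.72 in DO, higher in EO in both mice (log2 change 1.80, adjusted p = 0.00393), and the median change was 0.60 (0.05 without EO mc028). Of the 5 adhesion calls higher in EO, 5, 2, 1 and 2 were also made without EO mc028, EO mc029, DO mc028 and DO mc029 in turn and 0 and 1 without mouse mc028 and without mouse mc029. Of the 2 higher in DO, 1, 2, 1 and 1 were also made without these arrays and 1 and 2 without these mice.

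Among protease inhibitors, lipid enzymes and gasdermins the calls were few and all higher in DO. Of 21 tested protease inhibitors, 15 had a negative change and 4 were called higher in DO (median log2 change -0.85), Wfdc12, Serpinb3a, Serpinb3c and the stefin gene Stfa2l1. Slpi, a secreted inhibitor of leukocyte proteases, had 13.30 and 16.67 in EO and 15.87 and 16.15 in DO, with the EO array of mc028 alone low (log2 change -1.02, adjusted p = 0.565). Of 27 tested genes for barrier lipids, 20 had a negative change, but the only call was Smpd3, a sphingomyelinase that was below background in EO and at least 3.91-fold higher in DO (median of the list -0.71). Alox12b, a lipoxygenase of the epidermal barrier, had 9.09 and 10.76 in EO and 11.05 and 11.92 in DO, again with a low EO array of mc028 (log2 change -1.56, adjusted p = 0.0874). Of 6 tested gasdermins, which form membrane pores, Gsdma and Gsdmc3 were higher in DO (median -1.67). Gsdma had 8.83 and 10.20 in EO and 12.75 and 12.91 in DO, without overlap (log2 change -3.32, adjusted p = 0.00700). The inhibitor median was -0.28 without mouse mc028 and -1.43 without mouse mc029, the lipid median -0.26 without EO mc028, and the gasdermin median -3.21 with the processed signal, which also gave 1 inhibitor and 1 lipid gene called higher in EO. Of the 7 calls, 5, 6, 5 and 5 were also made without EO mc028, EO mc029, DO mc028 and DO mc029 in turn, and 3 and 5 without mouse mc028 and without mouse mc029.

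Called genes of the S100, antimicrobial and IL-1 lists were all higher in DO. Of 25 tested S100 proteins and antimicrobial peptides, 18 had a negative change and 8 were called, all higher in DO (median log2 change -1.54, and -0.93 without mouse mc028). Defb4, a β-defensin, had log2 intensities of 7.14 and 9.53 in EO and of 14.22 and 14.06 in DO. The DO arrays were alike and far above the unequal EO arrays (log2 change -5.80, adjusted p = 0.00531). Defb6 had 7.06 and 9.20 in EO and 12.54 and 12.99 in DO, again low and unequal in EO (log2 change -4.64, adjusted p = 0.00766). Slurp1, a secreted protein of the Ly6 family, had 11.47 and 10.19 in EO and 15.43 and 15.16 in DO, here with mc028 the higher EO array (log2 change -4.46, adjusted p = 0.0183). Defb1 and Defb14 had changes of -2.32 and -2.24, S100a7a of -1.82, and Defb3 was at least 4.70-fold higher in DO. S100a8 and S100a9, the calprotectin pair, had log2 changes of -1.22 and -1.54 and were not called (adjusted p = 0.331 and 0.230).

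In the IL-1 family, 4 of 12 tested genes were called, all higher in DO, with a median log2 change of -0.41. That median was -0.88 without EO mc028, -1.24 with the processed signal and between -2.12 and -0.33 over the settings. Il1f6, which encodes IL-36α, had 9.29 and 10.14 in EO and 12.90 and 14.15 in DO, higher in mc029 at both ages and far apart between them (log2 change -3.81, adjusted p = 0.00521). Il1f8, for IL-36β, had 7.68 and 8.99 in EO and 11.67 and 12.11 in DO, and Il1f5, for the IL-36 receptor antagonist, had 6.90 and 8.58 in EO and 9.98 and 10.97 in DO. The DO arrays of both genes lay above their EO arrays (log2 changes -3.55 and -2.73, adjusted p = 0.00529 and 0.0219). Il18 followed with a change of -2.12. Among chemokines and cytokines, 14 of 19 tested genes had a positive change and 3 were called, all higher in EO. Their median was 0.85, and 2.13 with the processed signal. No test set this list against the IL-1 family. Cxcl5, a neutrophil attractant, had 10.77 and 11.34 in EO and 7.33 and 6.68 in DO, clearly high in EO (log2 change 4.05, adjusted p = 0.0308). Cxcl1, a gene of the same kind, had 10.69 and 12.43 in EO and 7.42 and 6.95 in DO but missed the call (log2 change 4.38, adjusted p = 0.0517). Cxcl16 had a change of 2.15. Of the 12 defence and IL-1 calls higher in DO, 9, 11, 6 and 8 were also made without EO mc028, EO mc029, DO mc028 and DO mc029 in turn and 6 and 11 without mouse mc028 and without mouse mc029. Of the 3 chemokine calls, 1 was also made without EO mc028 and 0 in the other fits, with log2 changes between 1.65 and 4.66.

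Called genes among the EGF family ligands were higher in EO. Of 12 tested ligands and receptors, 4 were called, all ligands and all higher in EO. The median log2 change was 0.20 over the tested genes and 0.52 over the 11 members. Over the tested genes it was 0.07 without EO mc029, 0.37 without mouse mc028 and 0.50 with the processed signal. It was at most 0.91, with the filter for all 4 arrays. With the processed signal 4 were called higher in EO and 1 higher in DO. Epgn, for epigen, had log2 intensities of 11.75 and 13.21 in EO and of 8.73 and 7.97 in DO. Areg, for amphiregulin, had 9.18 and 9.31 in EO and 7.30 and 6.96 in DO. Nrg1, for neuregulin, had 13.37 and 13.64 in EO and 11.84 and 11.98 in DO. All 3 genes were higher in both EO arrays than in both DO arrays, with log2 changes of 4.13, 2.11 and 1.60 and adjusted p of 0.00967, 0.0308 and 0.00456. Ereg, for epiregulin, had a change of 1.70. The receptor genes did not differ beyond the test: Egfr had a log2 change of -0.25, Erbb2 of -0.23 and Erbb3 of -0.25.

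Among 16 genes known as targets and feedback regulators of the ERK pathway, 13 had a positive change and 3 were called higher in EO, with a median log2 change of 0.73, which was 1.26 with the processed signal. Etv4, an ETS transcription factor, had 12.52 and 12.40 in EO and 8.88 and 9.41 in DO, with the mice nearly equal in EO and far above DO (log2 change 3.32, adjusted p = 9.34e-04). Etv5, its relative, had 11.99 and 11.48 in EO and 9.16 and 9.47 in DO, the same picture (log2 change 2.42, adjusted p = 0.00411). Phlda1 had a change of 1.80. Dusp6, a phosphatase of ERK, and Errfi1, an inhibitor of the receptor, had changes of 1.27 and 1.41 with adjusted p of 0.00812 and 0.00397, short of the size needed for a call. Of 14 tested AP-1 and immediate early genes, Fosl1 and Atf3 were higher in EO and 0 higher in DO (median -0.16). Fosl1, for the AP-1 subunit FRA-1, had 10.70 and 10.68 in EO and 7.91 and 8.04 in DO, a clear step between the ages (log2 change 2.71, adjusted p = 0.00441), while Fos had 8.99 and 9.20 in EO and 9.95 and 9.43 in DO (log2 change -0.59). Of the 9 calls of these lists, 8, 5, 5 and 5 were also made without EO mc028, EO mc029, DO mc028 and DO mc029 in turn, and 2 and 2 without mouse mc028 and without mouse mc029, Etv4 each time.

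The Wnt genes are of interest because the medium supplied no Wnt. Of 30 tested Wnt ligands and receptors, 2 were called higher in EO and 1 higher in DO, with a median log2 change of 0.06 (0.19 with the processed signal). Wnt9a had log2 intensities of 10.92 and 11.15 in EO and of 7.25 and 7.66 in DO, a wide gap between the ages (log2 change 3.58, adjusted p = 0.00174). Wnt10a had 14.99 and 15.05 in EO and 13.39 and 13.63 in DO, the mice nearly equal (log2 change 1.51, adjusted p = 0.00475). Wnt16 had 6.20 and 6.23 in EO and 7.91 and 9.03 in DO, at background in EO and at least 4.13-fold higher in DO (adjusted p = 0.0259). Wnt4 had 15.79 and 15.44 in EO and 15.44 and 15.60 in DO, arrays that overlapped (log2 change 0.10). Lgr5 and Lgr6, receptors for R-spondins, were well above background on no array.

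Secreted antagonists, feedback genes and TCF factors had 18 tested genes, 0 calls in limma (6 at an unadjusted p under 0.05) and a median log2 change of -0.17. With the processed signal 2 were called higher in EO and 1 higher in DO, with a median of -0.06, and without DO mc028 1 was called higher in DO. Axin2, a feedback gene of the pathway, had 7.13 and 7.34 in EO and 6.32 and 6.26 in DO, above background in EO only (at least 1.81-fold higher there, adjusted p = 0.0130, under the size for a call). Dkk3 had 13.20 and 12.47 in EO and 12.72 and 11.94 in DO, arrays that overlapped (log2 change 0.51, adjusted p = 0.453), and Kremen1 had a change of 0.10. Dkk1 and Kremen2 were not tested.

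Of 23 tested Notch ligands, receptors and modifiers 0 were called by limma (4 at an unadjusted p under 0.05), with a median log2 change of -0.07, a sign that flipped under 2 of the 4 other scalings. Notch2 had 11.43 and 11.31 in EO and 10.40 and 10.46 in DO, higher in EO by less than a call needs (log2 change 0.94, adjusted p = 0.0258). Notch3 had 12.13 and 12.42 in EO and 12.32 and 12.38 in DO, and Hes1, a Notch target, had 10.90 and 9.82 in EO and 10.57 and 10.58 in DO. The arrays of both genes overlapped (log2 changes -0.07 and -0.22). Notch1 had 8.77 and 8.93 in EO and 9.59 and 8.02 in DO, lower in EO in mc028 and higher in EO in mc029 (log2 change 0.05). Dll3 was well above background on no array, and Mfng was not tested. Of 7 tested Notch targets 0 were called by limma and 0 had an unadjusted p under 0.05 (median 0.14, and -0.04 over the 6 members).

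In the TGF-β superfamily, 2 of 27 tested genes were higher in EO and 1 higher in DO (median 0.27, 0.06 without DO mc028 and 0.17 without EO mc029). Fst, given above, was among the rises. Tgfbi, for a matrix protein induced by TGF-β, had 11.81 and 12.66 in EO and 14.11 and 14.84 in DO, low in EO in both mice (log2 change -2.24, adjusted p = 0.0146). Inhba, which encodes a chain of activin, had 8.06 and 11.27 in EO and 6.64 and 7.36 in DO, with the EO arrays far apart (log2 change 2.67, adjusted p = 0.186). Of the 4 Wnt and TGF-β calls higher in EO, 4, 2, 2 and 4 were also made without EO mc028, EO mc029, DO mc028 and DO mc029 in turn and 0 and 2 without mouse mc028 and without mouse mc029. Of the 2 higher in DO, 0, 1, 2 and 0 were also made without these arrays and 0 and 0 without these mice.

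Of 34 tested transcription factors known from squamous epithelia, 3 were higher in DO and 1 higher in EO, with a median log2 change of -0.22, which was -0.10 without EO mc028 and -0.07 with the processed signal. Hopx, a homeodomain protein without a DNA-binding domain of its own, had log2 intensities of 12.46 and 13.48 in EO and of 15.60 and 15.46 in DO, higher in both DO arrays (log2 change -2.56, adjusted p = 0.0157). Barx2, a homeobox factor, had 7.89 and 7.93 in EO and 10.31 and 9.76 in DO, a clean separation (log2 change -2.13, adjusted p = 0.00505). Rora, a nuclear receptor, had 6.58 and 7.02 in EO and 8.21 and 8.46 in DO, also lower in EO in both mice (log2 change -1.54, adjusted p = 0.00653). Sox9 had 8.95 and 9.42 in EO and 7.34 and 7.64 in DO, higher in EO in both mice (log2 change 1.70, adjusted p = 0.0347). Klf4 and Grhl3, known drivers of barrier genes, were not called, with log2 changes of -0.24 and 0.77. In the metabolism and transport of vitamin A, Stra6, the membrane receptor for its carrier, was called among 15 tested genes, with 10.13 and 10.21 in EO and 7.23 and 7.27 in DO, the mice nearly equal (log2 change 2.92, adjusted p = 0.0254). The median of that list, -0.02, flipped sign under 2 of the 4 other scalings. Of the 3 calls higher in DO, 1, 3, 2 and 1 were also made without EO mc028, EO mc029, DO mc028 and DO mc029 in turn and 0 and 2 without mouse mc028 and without mouse mc029, and the calls of Sox9 and Stra6 were lost in each of these fits (log2 changes between 1.47 and 2.96).

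The called cell cycle genes were all higher in EO, and those of mitosis lost the call whenever an array was left out. All 31 tested mitotic genes had a positive change and 7 were called, with a median log2 change of 1.29. The list's median log2 intensity was 12.34 and 12.13 in EO and 10.86 and 11.13 in DO. Aurka, the mitotic kinase Aurora A, had 13.43 and 13.50 in EO and 10.94 and 11.02 in DO. Plk1, another mitotic kinase, had 14.39 and 14.43 in EO and 12.34 and 12.42 in DO. Both genes were nearly the same in the mice and lower in DO (log2 changes 2.48 and 2.03, adjusted p = 0.0167 and 0.0480). Cenpe, a motor of the kinetochore, Prc1, Cdc25c, Ccnb1 and Tpx2 were called with changes of 2.12, 1.76, 1.69, 1.58 and 1.55. Mki67 had 14.03 and 14.24 in EO and 13.30 and 13.17 in DO, higher in EO without reaching a call (log2 change 0.90, adjusted p = 0.165), and Birc5 had a change of 1.51 (adjusted p = 0.0702). The 7 calls rest on all 4 arrays, since 0 mitotic genes were called without any 1 of them or without either mouse, with list medians that stayed positive, 1.43 at most. With the mouse as a block 4 mitotic genes were called, and 4 with the processed signal.

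Of 30 tested replication genes, 28 had a positive change and Mcm10 and Fen1 were called higher in EO, with a median log2 change of 0.66. Mcm10, which loads factors at the origin, had 12.29 and 12.48 in EO and 10.85 and 10.50 in DO, and Fen1, a nuclease of the lagging strand, had 14.36 and 14.13 in EO and 12.77 and 12.50 in DO. Both were higher in EO in each mouse (log2 changes 1.71 and 1.61, adjusted p = 0.0499 and 0.0338). Of 15 tested cyclins D, CDK inhibitors and pocket proteins 0 were called in limma and 6 had an unadjusted p under 0.05 (median 0.28). Cdkn1a, for p21, had 12.52 and 13.38 in EO and 12.17 and 12.14 in DO (log2 change 0.80), and Cdkn2a had 11.69 and 11.80 in EO and 12.83 and 12.68 in DO (log2 change -1.01). Neither passed the test. Of 13 tested p53 targets Gdf15 was called, with 9.74 and 8.14 in EO and 6.40 and 6.37 in DO, high in EO and higher in mc028 there (log2 change 2.56, adjusted p = 0.0172), and the list's median was 0.83. Of the 10 calls of the cell cycle and p53 lists, 1, 1, 0 and 0 were also made without EO mc028, EO mc029, DO mc028 and DO mc029 in turn and 0 and 1 without mouse mc028 and without mouse mc029.

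Among genes of oxidative stress and xenobiotic metabolism, 4 of 22 tested were higher in EO and 2 higher in DO, with a median log2 change of 0.45, which was 0.21 without EO mc029. Akr1b8, an aldo-keto reductase, had log2 intensities of 13.57 and 14.78 in EO and of 9.97 and 10.41 in DO. Txnrd1, for thioredoxin reductase, had 14.62 and 14.31 in EO and 12.18 and 11.93 in DO. In both genes the EO arrays were high in each mouse (log2 changes 3.99 and 2.41, adjusted p = 0.00514 and 0.0101), and Nqo1 and Srxn1, targets of NRF2 like Txnrd1, had changes of 1.84 and 1.60. Cyp2f2, a cytochrome P450, had 10.65 and 8.37 in EO and 14.99 and 13.01 in DO, higher in DO and higher in mc028 at both ages (log2 change -4.48, adjusted p = 0.0179). Cbr2, a carbonyl reductase, had a change of -2.41. Slc7a11, the cystine transporter, was the call among 17 genes of the amino acid response (median 0.44), with 9.86 and 10.49 in EO and 6.79 and 7.65 in DO, high in EO in both mice (log2 change 2.95, adjusted p = 0.0103). Of 22 tested glycolysis and hypoxia genes 19 had a positive change, and Ndrg1 was called (log2 change 1.94, list median 0.65).

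Other metabolic lists had 0 calls by limma. Ribosome biogenesis had 21 of 22 changes positive, a median of 0.56 and 15 genes at an unadjusted p under 0.05. Cholesterol synthesis had 18 of 24 positive, a median of 0.33 (0.19 without DO mc028) and 8 such genes. The cytosolic ribosomal proteins had 58 of 75 negative, a median of -0.12 (-0.07 without mouse mc028 and -0.53 with the processed signal) and 14 such genes, and oxidative phosphorylation had 26 of 42 negative, a median of -0.11 and 12 such genes. Polr1a, the large subunit of RNA polymerase I, had 12.67 and 12.30 in EO and 11.48 and 11.28 in DO, higher in EO by less than a call needs (log2 change 1.11, adjusted p = 0.0119). Ldha, for lactate dehydrogenase, had 17.37 and 17.22 in EO and 16.34 and 16.63 in DO, of the same kind (log2 change 0.81, adjusted p = 0.0216). Of the 6 metabolic calls higher in EO, 3, 4, 1 and 5 were also made without EO mc028, EO mc029, DO mc028 and DO mc029 in turn and 0 and 3 without mouse mc028 and without mouse mc029. Of the 2 higher in DO, 2, 0, 0 and 2 were also made without these arrays and 1 and 1 without these mice.

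Matrix and cytoskeletal genes included several of the leading rises. Of 20 tested genes of matrix remodelling and the wound edge, 16 had a positive change and Adam8, Plaur and Fn1 were called higher in EO, with a median log2 change of 0.66. Plaur, the receptor for urokinase, had 11.39 and 10.88 in EO and 8.13 and 7.50 in DO, high in EO in both mice (log2 change 3.32, adjusted p = 0.0242). Its ligand gene Plau had a change of 0.73 (adjusted p = 0.0229). Fn1 had 8.42 and 9.51 in EO and 6.10 and 6.12 in DO, at background in DO (adjusted p = 0.0236). Of 26 tested genes of actin and tubulin, Tubb6, Tpm1 and Flna were higher in EO and Tagln higher in DO (median 0.40, between 0.20 without EO mc029 and 0.71 without mouse mc028), and with the processed signal 1 was called on each side. Tubb6, a β-tubulin, had 13.78 and 14.22 in EO and 9.50 and 10.80 in DO, the largest gap of the list (log2 change 3.85, adjusted p = 0.0107). Tagln, for transgelin, had 10.34 and 9.87 in EO and 11.87 and 11.75 in DO, low in EO in both mice (log2 change -1.71, adjusted p = 0.00766). Of the 6 calls higher in EO, 5, 3, 2 and 2 were also made without EO mc028, EO mc029, DO mc028 and DO mc029 in turn and 0 and 0 without mouse mc028 and without mouse mc029. The call of Tagln was made without each array but EO mc029 and without neither mouse.

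**Figure D3:**
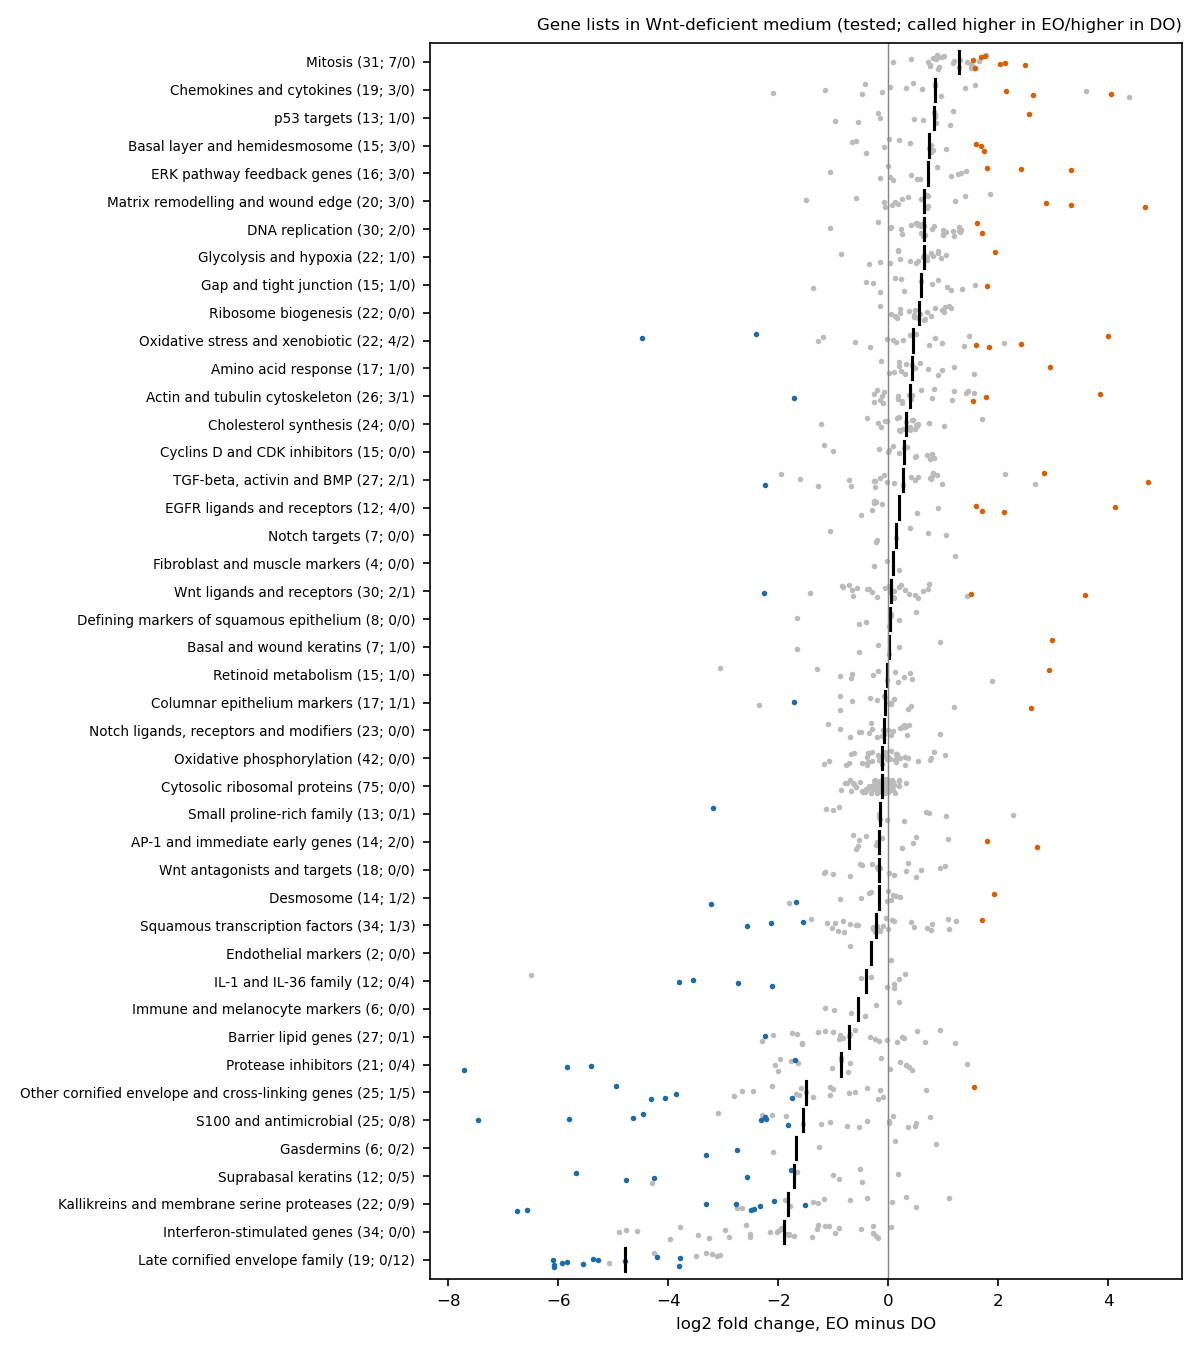
Log2 change EO minus DO (x axis) of every tested gene of the 44 lists (y axis, ordered by median), 1 point for each gene, orange where called higher in EO, blue where called higher in DO and grey otherwise, with the list's median as a black bar. The medians run from -4.78 for the Lce family to 1.29 for mitosis, and those of the basal and wound keratins, the Notch modifiers, the retinoid genes, the fibroblast markers and the squamous defining markers flip sign under at least 1 other scaling.

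Genes induced by type I interferon set the DO array of mouse mc028 apart from the other 3 arrays. Over the 22 members of that list the median log2 intensity was 8.04 and 7.98 in EO, and 12.25 and 8.05 in DO. Isg15, a ubiquitin-like modifier, had 9.25 and 8.30 in EO and 15.21 and 10.26 in DO. Oasl2 had 7.02 and 6.53 in EO and 13.56 and 6.89 in DO, and Rtp4 had 7.24 and 6.33 in EO and 14.10 and 7.04 in DO. In each of these genes DO of mc028 was far above all other arrays, and DO of mc029 lay near EO for Oasl2 and Rtp4. The DO arrays of the mice differed by more than 1 in 21 of 22 members, against 3 in EO. Of 34 tested genes, 33 had a negative change with a median log2 change of -1.90, but limma called 0 (5 at an unadjusted p under 0.05), and 1 higher in DO with the processed signal. The median was 0.04 without DO mc028 and -3.91 without DO mc029, and 28 of the genes were called higher in DO in the latter fit. Without mouse mc028 the median was -0.02 with 0 calls, and without mouse mc029 it was -3.68 with 19 calls.

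**Figure D4:**
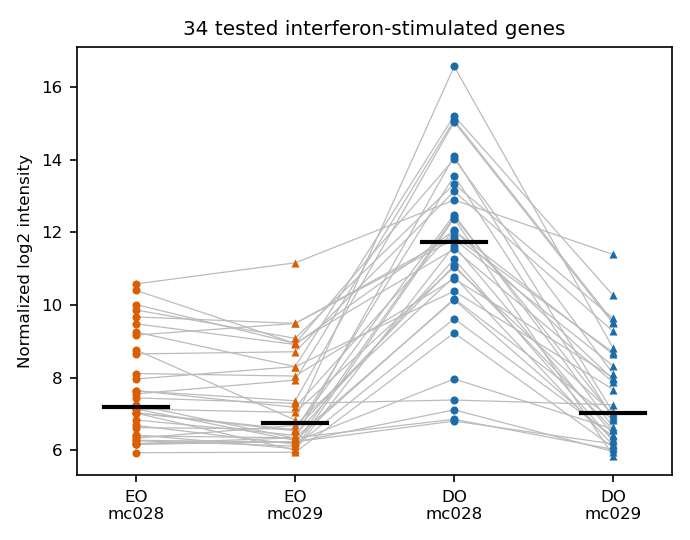
Log2 intensity (y axis) of the 34 tested interferon-stimulated genes in each of the 4 arrays (x axis), 1 line for each gene and the median of each array as a black bar. The DO array of mouse mc028 lies above the other 3 arrays for most genes, as for Isg15 at 15.21 against 9.25, 8.30 and 10.26.

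The labelled tissue was checked against marker genes. All 8 defining markers of squamous epithelium (Krt5, Krt14, Trp63, Krt6a, Krt15, Dsg3, Cdh1 and Cdh3) were well above background on each of the 4 arrays. Their summed linear intensity was 584530 and 624678 in EO and 743878 and 723940 in DO, with Krt5 the most intense probe. None was called between the ages (0 in limma, 2 at an unadjusted p under 0.05), and their median log2 change of 0.03 flipped sign under 2 of the 4 other scalings. Columnar epithelium had 22 marker genes, of which 16 and 12 were well above background in EO and 16 and 13 in DO, and 5 on no array. Their summed intensity was 116893 and 74479 in EO and 139046 and 55382 in DO, with Pigr the most intense probe. The sum was higher in mouse mc028 at both ages, but not each gene was: of the 13 members, 4 were higher in mc029 in EO and 1 in DO. Pigr had 14.21 and 15.20 in EO and 15.84 and 14.24 in DO, higher in mc029 in EO and in mc028 in DO. Krt7 had 11.91 and 8.31 in EO and 12.44 and 9.52 in DO, and Foxa1 had 9.72 and 6.72 in EO and 9.76 and 6.81 in DO. Krt7 and Foxa1 separated the mice and not the ages.

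Krt18, a columnar keratin, was called higher in EO, with 13.36 and 11.92 in EO and 10.52 and 9.55 in DO, higher in EO in both mice and in mc028 at both ages (log2 change 2.60, adjusted p = 0.0206). Psca was called higher in DO (log2 change -1.72, adjusted p = 0.0463). Over 17 tested columnar markers the median was -0.05, but -0.68 without DO mc029, -0.42 without EO mc028 and 0.25 without DO mc028. The call of Krt18 was also made without EO mc029 and without mouse mc029 and lost in the other 4 fits (log2 changes between 1.89 and 3.32), and that of Psca was also made without DO mc029 alone (between -2.36 and -1.08). Of 15 fibroblast and muscle markers 12 were well above background on no array, and the sum was 1936 and 2153 in EO and 1354 and 1405 in DO, with Sparc the most intense probe. Of 6 endothelial markers 4 were on no array (sums 1432 and 1606 in EO, 1774 and 2842 in DO, Kdr the most intense). Of 12 immune and melanocyte markers 7 were on no array (sums 4196 and 5041 in EO, 8509 and 8091 in DO, Itgam the most intense). These 3 lists had 0 calls by limma (1, 1 and 2 genes at an unadjusted p under 0.05). Their median log2 changes were 0.08 over 4 tested genes, -0.32 over 2 (between -0.70 and -0.11 over the settings) and -0.55 over 6 (between -0.83 and -0.32). Among the tested immune and melanocyte markers, 5 changes were negative and 1 positive. Itgam had 10.95 and 11.26 in EO and 12.22 and 12.27 in DO, under the size for a call (log2 change -1.14, adjusted p = 0.00925). The fibroblast median flipped sign under 1 other scaling and without mouse mc028 (-0.04), and was 0.57 with the processed signal. Over the 2 members of the fibroblast list it was 0.48. The part of any of these cells in the differences between EO and DO was not tested.

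Among the genes that the study names for squamous layers, 22 of 25 were tested. Lor, Krt10, Fam25c and Krt17 were called and are given above. Cks2 and Hmgb2, named with the dividing basal cells, had log2 changes of 0.88 and 0.82 (adjusted p = 0.180 and 0.173). Gm94, named with differentiated cells, had 12.29 and 15.42 in EO and 15.94 and 15.99 in DO, where the EO array of mc028 alone was low (log2 change -2.11, adjusted p = 0.248).

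Distances between the mice were counted over the calls, with no test of the counts. Of the 465 probes called higher in DO, EO of mc029 was above EO of mc028 by more than 1 on the log2 scale for 67 and below it by as much for 8. Among the 290 called higher in EO these counts were 24 and 7. Over all 24667 members they were 455 and 358. In DO, mc029 was above mc028 by more than 1 for 16 of the 465 and below for 27, for 10 and 0 of the 290, and for 268 and 435 of all members. Probes for long intergenic non-coding RNAs made up 4112 members, of which 14 were called higher in EO (0.340%, against 1.18% of all members) and 60 higher in DO (1.46%, against 1.89%). The median GC content of the probes was 41.7% among those called higher in EO, 43.3% among those called higher in DO and 43.3% over all members.

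Promoters of the tested genes were searched for motifs. The sequences are those of RefSeq on GRCm38.p6, from 250 bases before to 50 after each start, and 11539 of the tested genes had an entry, 144 of them called higher in EO and 247 called higher in DO. For 12 motifs, searched on both strands, the share of promoters with at least 1 match was counted. The cell cycle element TTTGAA (CHR) was in 12.5% of all promoters, in 20.8% of those higher in EO, in 12.1% of those higher in DO and in 17 of 25 promoters of the mitosis list (68.0%). CTTTGAA, searched for TCF/LEF and holding the CHR letters within it, was in 3.75% of all, 4.86% of EO and 4.86% of DO promoters. TGANTCA (AP-1) was in 5.69% of all, 5.56% of EO and 10.1% of DO promoters, in 9 of 12 Sprr promoters and in 0 of 18 Lce promoters. CCGGAAG (ETS) was in 16.7% of all, 13.9% of EO and 5.26% of DO promoters, and the letters TATAAA, searched for the TATA box, were in 8.38% of all, in 23 of 144 EO and in 14.6% of DO promoters. The interferon-stimulated response element (ISRE), spelled as GAAA, any 2 bases and GAAA again, was in 2.87%, 1.39% and 3.24%, and in 13 of 23 promoters of interferon-stimulated genes (56.5%).

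The other motifs were AACCNGTT (GRHL) in 1.90%, 1.39% and 4.05% of all, EO and DO promoters, GGGTGTGG (KLF) in 4.01%, 4.86% and 3.24%, GTGGGAA (RBPJ) in 6.14%, 9.03% and 7.29%, TTGCGCAA (CEBP) in 0.225%, 0.694% and 0%, TGACGTCA (CRE) in 3.18%, 2.78% and 1.21%, and TGACNNNGC (ARE) in 14.4% and 14.6% of all and EO promoters and in 37 of 247 DO promoters. A match is a description, not a site or a cause, and a promoter without a match says only that these letters are not in this window. Among the called mitotic genes, the promoters of Aurka, Plk1 and Prc1 had a CHR match, and those of Cenpe and Ccnb1 had no CHR match. For Cdc25c and Tpx2 no promoter with a match was found. Printed here are the promoters of Aurka and Plk1, which have a match, with the CHR letters in capitals. That of Isg15 follows, with its 3 overlapping ISRE matches in capitals.
Aurka: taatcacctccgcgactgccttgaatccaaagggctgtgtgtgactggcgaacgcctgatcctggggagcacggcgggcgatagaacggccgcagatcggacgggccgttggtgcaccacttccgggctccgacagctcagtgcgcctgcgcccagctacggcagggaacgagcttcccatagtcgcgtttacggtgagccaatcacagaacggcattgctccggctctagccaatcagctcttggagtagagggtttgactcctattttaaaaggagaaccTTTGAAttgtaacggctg
Plk1: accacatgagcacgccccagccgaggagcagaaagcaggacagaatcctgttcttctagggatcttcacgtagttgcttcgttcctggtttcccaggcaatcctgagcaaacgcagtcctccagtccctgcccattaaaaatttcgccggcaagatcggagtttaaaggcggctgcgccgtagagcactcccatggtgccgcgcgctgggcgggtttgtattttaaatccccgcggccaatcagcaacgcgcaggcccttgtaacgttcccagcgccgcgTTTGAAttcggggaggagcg
Isg15: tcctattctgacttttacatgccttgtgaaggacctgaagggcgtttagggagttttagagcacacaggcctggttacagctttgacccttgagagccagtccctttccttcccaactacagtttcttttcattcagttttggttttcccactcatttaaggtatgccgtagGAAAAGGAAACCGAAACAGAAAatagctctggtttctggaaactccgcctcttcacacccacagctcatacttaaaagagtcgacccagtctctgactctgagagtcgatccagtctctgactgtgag
They lie on GRCm38.p6 at chr2:172370521-172370820 (minus strand), chr7:122159185-122159484 (plus strand) and chr4:156200769-156201068 (minus strand).

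The change from EO to DO was set against that in Wnt-proficient medium only to show where it differed. By the interaction term of limma, 424 of 29423 tested probes (1.44%) differed between the media in EO minus DO, 404 of them members. Among these were 217 of the 755 probes called between EO and DO here, 58 of the 290 higher in EO and 159 of the 465 higher in DO. With the mouse as a block 268 probes differed between the media. Without single arrays or mice that count moved widely, as given in the last section. The arrays of the other medium came from other mice, other passages and another slide, so that medium, mice, passage and slide cannot be told apart in this difference. Within that medium EO and DO also differed in passage. Of the 129 called genes named by rule, 21 were called under every setting that tested them (8 of these were not tested under the filter for all 4 arrays) and 108 lost the call under at least 1, most of them (93) without mouse mc028, and 0 changed sign.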

How the data were processed

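Total RNA of the 4 Wnt-deficient cultures, labelled with Cy3, was hybridized to 1-colour Agilent arrays of 62976 spots. Per the file headers, the intensity values are pixel means and medians of each spot and of its local background, read with Feature Extraction 11.5.1.1, and the processed intensity is background-subtracted within an array but not scaled between arrays. The deposited log2 values were background-corrected and quantile-normalized by the authors. They were used as an alternative and ranked the spots of each array as the values computed here did (Spearman rho 1), and their 3784 empty cells were all spots marked as outliers.

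Control spots (3671) and outlier spots (171, 184, 186 and 169 on the 4 arrays) were left out. Mean signals were corrected with normexp (offset 50) against the local background, quantile-normalized over the 8 arrays of the series, put on the log2 scale and averaged over the spots of a probe. A probe counted as well above background where at least 50% of its spots were so marked. Probes so marked on at least 2 arrays of a group were tested (29423). limma 3.58.1 in R 4.3.3 (with the data.table package, 1.17.8) fitted a mean for each of 4 groups on the 8 arrays (4 residual and 3.14 prior degrees of freedom), with adjustment over all tested probes. Gene names came from RefSeq accessions (GRCm38.p6) or, failing these, from the array files, and a gene was represented by its probe with the highest mean over the 4 arrays. For 10 called genes another tested probe had a change of the opposite sign. Tables and figures were made with Python 3.11.15, pandas 2.3.3, numpy 2.4.6 and matplotlib 3.10.9.

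Genes were named by rule where called and changed in the same direction in both mice: the 15 largest rises and falls well above background on at least 1 array of each group, the 8 largest lower bounds each way, and called genes of 44 lists. The genes that the study names for squamous layers were added whether called or not. The members and lists were chosen with earlier results of these data known. Alternatives were other background offsets, scalings and filters, the deposited table, the mouse as a block, a fit of the 4 arrays alone, a smaller fold and each array or mouse left out. The Wnt-proficient arrays entered the spread and the difference between media. A few results that the rule would name are not reported here.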

Additional observations from a re-analysis of the deposited data

Results flagged for a closer look

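Beside the comparison of EO with DO in Wnt-deficient medium, its change was tested against that in Wnt-proficient medium with the interaction term of limma, and 38 of the named genes passed (adjusted p under 0.05 and a difference beyond 1.5 on the log2 scale). The values below, given for 37 of them, are EO minus DO in Wnt-deficient medium less EO minus DO in Wnt-proficient medium. Medium, mice, passage and slide cannot be told apart in them, and the part of each was not tested. In Wnt-proficient medium EO and DO also differed in passage, 15 against 4 in mouse mC012 and 10 against 1 in mouse mC017. How the count of such probes depends on single arrays is given below.

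A positive value means a higher EO minus DO in Wnt-deficient medium than in Wnt-proficient medium. The largest such values were those of Rs5-8s1 (5.0), Adam8 (4.66), Dkk3 (4.10) and Akr1b8 (3.68). For Dkk3, EO minus DO was 0.51 in Wnt-deficient medium, where it was not called, and -3.59 in Wnt-proficient medium. The IgM receptor gene Fcmr had 3.39, the amino acid transporter gene Slc7a8 had 3.28 and Wnt9a had 3.14. Artn and the ETS factors Etv4 and Etv5 had 2.91, 2.86 and 2.17. The adhesion genes Cldn4 and Pkp2 had 2.77 and 2.48, and Afp had 1.88. Fcmr and Afp were at background on both DO arrays of Wnt-deficient medium, so that the size of their values rests on the background.

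A negative value means a lower EO minus DO in Wnt-deficient medium. Klk1b5, Klk1, Klk1b26, Klk1b24, Klk1b4, Wfdc15b, Defb3, Lce1m and Smpd3 were at background on both EO arrays of Wnt-deficient medium, so that the size of their values rests on the background and gives no order. Among the kallikreins, the values were Klk1b5 at -7.56, Klk1 at -6.99, Klk1b3 at -6.71, Klk1b26 at -6.19, Klk1b24 at -5.68 and Klk1b4 at -4.16. Among the protease inhibitors, Wfdc12 had -7.51, Serpinb3a -5.87, Serpinb3c -5.51 and Wfdc15b -4.50. Defensins and S100 genes followed, Defb4 with -5.93, S100g with -5.91, Defb6 with -4.55, Defb3 with -2.13 and S100a7a with -2.12. Of the keratins, Krt76 had -4.80 and Krt13 -2.42. Of the envelope genes, Lce1m had -4.18, Rptn -3.80 and Lor -3.20. The IL-36 ligand genes Il1f6 and Il1f8 had -3.68 and -3.29, Gsdma had -3.18 and Smpd3 had -2.26.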

How the results depend on the processing

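The 755 probes called between EO and DO in Wnt-deficient medium became 1513 where the software's processed signal, brought to a common 75th percentile, took the place of quantile values (676 higher in EO and 837 higher in DO), and 1892 (867 and 1025) with a fold threshold of 1 on the log2 scale, which by its construction gives more. With single arrays or mice left out the count lay between 157 and 827, with 27 to 334 higher in EO and 130 to 568 higher in DO, and the group left with 1 array was taken to vary like the others. The lowest count, 157, came without mouse mc028. With the replicate block, which pairs the arrays of a mouse, 743 were called (686 of them among the 755). Median spot intensities with an offset of 16, other scalings and filters, the deposited table and the 4 arrays alone gave 632 to 998. The cause of these shifts was not tested. The settings without each Wnt-proficient array or mouse were chosen for this count after the data were seen.

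The 424 probes that differed between the media became 732 with the processed signal, 268 with the replicate block and 6 to 494 with single arrays or mice left out. Of the 129 called named genes 0 changed sign. The call was lost by 31 with the processed signal, 26 without a filter on dim probes, 23 in the fit of the 4 arrays alone, 14 with the replicate block, 12 with normexp values scaled to the 75th percentile, 5 with the deposited table and 2 with median spot intensities and an offset of 16 together. The filter for probes well above background on all 4 arrays did not test the genes at background on an array. It was lost by 43 to 76 without a Wnt-deficient array, by 93 without mouse mc028 and by 64 without mouse mc029, and by 2 to 35 without a Wnt-proficient array or mouse. Signal over background limits the low side. For 47 probes called higher in DO and 14 called higher in EO the other group lay at background on both arrays. Their folds are lower bounds for the group means after quantile normalization.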
